A study of Mus musculus with 15 samples.

Results

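Splicing was followed with age, at 6, 12 and 20 weeks, in the uninduced skeletal muscle of a mouse line built to model myotonic dystrophy type 1. All libraries in which the repeat transgene was not switched on were taken, 3 of each week, which gives 9 of the 15 libraries of the series. Splicing events with a value in all 9 were kept, 31876 of 39123 events in the table. No library of induced muscle was used. In the model, the TREDT960I transgene carries an expanded CUG repeat and the MDAFrtTA transgene supplies the regulator that turns it on with doxycycline. Each week had 2 no-dox libraries, from mice with TREDT960I-HOM and MDAFrtTA that were given no doxycycline, and 1 dox control, from a mouse with TREDT960I-HOM alone that was given doxycycline from postnatal day 1. All 9 libraries therefore came from mice that carried the repeat transgene. All were female except week 6 no-dox replicate 2, which was male.

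Muscle was not balanced over the weeks. The 3 libraries of week 6 were all gastrocnemius. At week 12 no-dox replicate 2 was quadriceps and the other 2 libraries gastrocnemius. At week 20 both no-dox libraries were quadriceps, and the only gastrocnemius library was the dox control. Age from 6 to 20 weeks is thus largely confounded with quadriceps, and at week 20 muscle cannot be told apart from genotype and doxycycline. The fits below hold a term for muscle, which rests on the libraries of weeks 12 and 20 alone. RNA came from single muscles. The labels number no animals, so every p-value reflects the scatter among these 9 libraries only, which may be partly technical.

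Most multi-exon genes make several mRNAs, by skipping an exon, keeping an intron, moving a splice site, or starting or ending the transcript at another exon. After birth, skeletal muscle changes many of these choices as muscleblind-like (MBNL) proteins rise in activity and CELF proteins decline, and troponin, titin, calcium channel and membrane traffic genes take on their adult forms. Most of that switch is known from the first weeks of life, before the ages sampled here. Each event has a PSI (percent spliced in), given as a fraction of 0 to 1. For a skipped exon it is the share of transcripts that include the exon, and for a retained intron the share that keep it. For alternative first and last exons, splice sites, mutually exclusive exons and tandem UTRs, the sources used here do not say which form the PSI counts, so only its level is given. The fractions come without the number of reads behind them, so the counting error of a single PSI is unknown. Whole muscle was used, so a PSI averages over all its cell types, and fewer cells of a type cannot be told apart from less RNA per cell.

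First exons are set by the choice of promoter, and a pair of first-exon events, in Kcnab1 and Arhgap6, are among those that lead the results. Their promoters are shown so that the alternatives can be seen. They are RefSeq promoters of build GRCm38.p6, 300 bases each, written 5′ to 3′ with every CG dinucleotide in capitals.
Kcnab1 promoter 1, chr3:64948962-64949261, plus strand: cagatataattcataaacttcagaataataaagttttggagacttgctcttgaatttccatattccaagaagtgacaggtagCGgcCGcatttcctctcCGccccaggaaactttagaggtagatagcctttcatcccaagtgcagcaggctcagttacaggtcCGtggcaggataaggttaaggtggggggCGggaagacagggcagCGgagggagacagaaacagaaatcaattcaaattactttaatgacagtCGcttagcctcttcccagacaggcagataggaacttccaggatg
Kcnab1 promoter 2, chr3:65108764-65109063, plus strand: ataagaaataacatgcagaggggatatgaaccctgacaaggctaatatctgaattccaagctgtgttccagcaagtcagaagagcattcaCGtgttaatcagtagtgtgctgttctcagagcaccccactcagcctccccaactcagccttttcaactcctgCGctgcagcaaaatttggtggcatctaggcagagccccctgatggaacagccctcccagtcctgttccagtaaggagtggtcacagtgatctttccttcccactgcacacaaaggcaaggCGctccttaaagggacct
Kcnab1 promoter 3, chr3:65187853-65188152, plus strand: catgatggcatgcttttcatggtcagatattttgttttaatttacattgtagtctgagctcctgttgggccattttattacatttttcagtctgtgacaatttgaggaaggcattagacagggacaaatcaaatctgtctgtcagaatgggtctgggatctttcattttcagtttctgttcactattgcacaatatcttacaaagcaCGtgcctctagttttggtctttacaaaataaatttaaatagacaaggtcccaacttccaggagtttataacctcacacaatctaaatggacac
Arhgap6 promoter 1, chrX:168794849-168795148, plus strand: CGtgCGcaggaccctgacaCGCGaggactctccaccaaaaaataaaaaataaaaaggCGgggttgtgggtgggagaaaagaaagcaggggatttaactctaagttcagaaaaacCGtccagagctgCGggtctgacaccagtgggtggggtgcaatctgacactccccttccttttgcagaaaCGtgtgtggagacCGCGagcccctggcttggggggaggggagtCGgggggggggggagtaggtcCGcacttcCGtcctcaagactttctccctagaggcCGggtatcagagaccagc
Arhgap6 promoter 2, chrX:169036361-169036660, plus strand: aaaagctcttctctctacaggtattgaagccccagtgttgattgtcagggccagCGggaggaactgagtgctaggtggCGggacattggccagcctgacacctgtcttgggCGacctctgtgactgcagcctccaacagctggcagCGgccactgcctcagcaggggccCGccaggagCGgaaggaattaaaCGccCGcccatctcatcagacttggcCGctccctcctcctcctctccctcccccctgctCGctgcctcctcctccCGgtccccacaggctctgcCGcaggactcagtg
Arhgap6 promoter 3, chrX:169112628-169112927, plus strand: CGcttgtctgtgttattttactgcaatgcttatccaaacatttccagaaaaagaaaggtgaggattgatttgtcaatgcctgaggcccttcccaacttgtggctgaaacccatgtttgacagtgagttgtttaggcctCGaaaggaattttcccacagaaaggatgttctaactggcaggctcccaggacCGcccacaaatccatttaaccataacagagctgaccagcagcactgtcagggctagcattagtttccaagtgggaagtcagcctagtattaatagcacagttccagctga
In Kcnab1 the promoters held 7, 3 and 1 CG dinucleotides in order along the gene, and in Arhgap6 14, 12 and 3. The median of the 32851 promoters in the table was 7. The letters TATAAA, searched on both strands, occurred in the Kcnab1 promoter 3 alone of these, and in 13.6% of all promoters. Which of them each PSI counts is not given, so the sequences describe the alternatives only.

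No event was called in any comparison of weeks. Between week 20 and week 6, 0 of 31876 events (0.0%) passed an adjusted p of 0.05 with a difference in PSI of at least 0.1 in limma, with Benjamini-Hochberg adjustment over all events, and the lowest adjusted p was 0.525. At an unadjusted p under 0.05 there were 1898 events (5.95%), 952 higher and 946 lower at week 20. Between week 12 and week 6 the count was again 0 (0.0%), with 1473 events at an unadjusted p under 0.05 and a lowest adjusted p of 0.0970. Between week 20 and week 12 it was 0 (0.0%), with 1768 events and a lowest adjusted p of 0.885. A moderated F test for any difference among the 3 weeks was read by adjusted p alone, with no minimum difference in PSI. It called none (0 events), although 1695 had an unadjusted p under 0.05. It called 20 events on the logit scale and 3 without the week 20 dox control, and without that library week 20 against week 12 had 10 calls. Without the muscle term, week 20 against week 6 gave 2177 events at an unadjusted p under 0.05 and still 0 calls, and with the gastrocnemius libraries alone it gave 0 calls. On the logit scale limma called 1 event for week 20 against week 6, an alternative 3′ splice site of Apex2. Without the week 20 dox control, the only gastrocnemius library of that week, it called 3 events, in Ttc3 and Cul9. The muscle term then rests on the single week 12 quadriceps library, which had 0.17 and 0.20 in Ttc3 and 0.58 in Cul9. Weeks 20 and 6 overlapped in these events, with at most 0.02 in Ttc3 and 0.09 in Cul9. Without week 12 no-dox replicate 2 limma called 1, in Slc37a1, which had 0.54 in the week 20 dox control, against at most 0.11 in the others. An exact two-sided permutation test of the slope of PSI on week gave its smallest possible p, 0.000595, at 24 events, and a lowest adjusted p of 0.649.

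The plot of p-values shows how near the week comparisons lay to an even spread. An even spread puts 1594 events in each bin, and the first bin held 1898 for week 20 against week 6, 1473 for week 12 against week 6 and 1768 for week 20 against week 12. For quadriceps against gastrocnemius, estimated in the same fit, it held 2295, also with 0 calls. The libraries of different weeks were also nearly as alike as those of 1 week. The median Pearson correlation over events was 0.955 between libraries of week 20 and week 6, against 0.958 between libraries of the same week, and single pairs lay between 0.947 and 0.963.

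**Figure D1:**
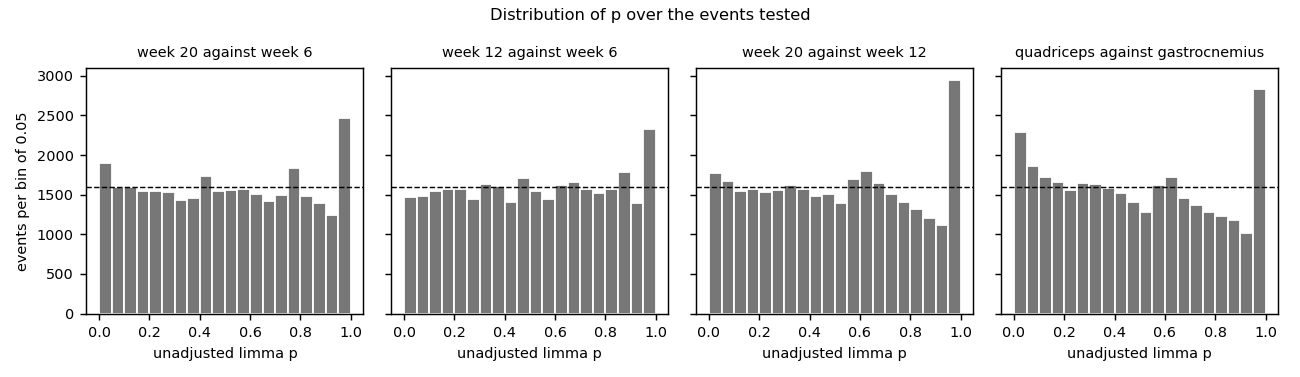
Number of events (vertical axis) in each bin of the unadjusted limma p (horizontal axis, bins of 0.05) for the 3 week comparisons and for the muscle term, with the even share of 1594 events as a dashed line. The first bins hold 1898, 1473, 1768 and 2295 events from left to right.

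Since 3 libraries against 3 cannot give an exact permutation p below 0.1, events were also described by their raw values. An event is called separated here where all 3 libraries of week 20 lay above, or all below, the 3 of week 6, with means at least 0.1 apart. There were 1225 separated events (3.84%), 610 higher (1.91%) and 615 lower (1.93%) at week 20. They lay in 895 named genes, and 82 could not be given a gene name. In 96 the means were at least 0.3 apart. Leaving out any 1 of the 6 libraries compared eases the condition and gave 1996 to 2391 events. The week 12 mean lay between those of the other weeks in 921 of the 1225, and all 3 week 12 libraries lay beyond week 6 in the direction of week 20 in 337.

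By construction, the week 20 gastrocnemius library lay beyond all week 6 libraries, themselves gastrocnemius, in every separated event. It lay at least 0.1 from the week 6 mean in 969 of the 1225 events. It was closer to week 6 than both quadriceps libraries in 407 and farther than both in 415. With the muscle term, the fitted difference took the other sign in 4 of the 1225, was at least 0.1 in the same direction in 985, and had an unadjusted limma p under 0.05 in 551. Named here are the separated events with the smallest p, 10 in each direction and 1 a gene. They were picked by this comparison, so their values describe them. Values are given as no-dox replicate 1, no-dox replicate 2 and dox control of each week.

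Among the 10 with a higher PSI at week 20, first exons of 3 genes stood out. Arhgap6 encodes a GTPase-activating protein. Its first-exon PSI was 0.31, 0.22 and 0.27 at week 6, then 0.60, 0.54 and 0.70 at week 12 and then 0.71, 0.60 and 0.83 at week 20. All later libraries lay above week 6, while weeks 12 and 20 overlapped. The fitted difference between week 20 and week 6 was 0.54 ± 0.06 (SE; limma, adjusted p = 0.525). Kcnab1 encodes a beta subunit of voltage-gated potassium channels. Its PSI was 0.22, 0.32 and 0.26 at week 6, then 0.49, 0.54 and 0.59 at week 12 and then 0.70, 0.61 and 0.68 at week 20. The 3 weeks did not overlap, and the quadriceps libraries lay among the others. The fitted difference was 0.41 ± 0.06 with the muscle term (SE; limma, adjusted p = 0.556) and 0.40 without it.

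Plec encodes plectin, which ties intermediate filaments to the Z-disc, the membrane and mitochondria, and its many first exons send the protein to different places in the fibre. The leading Plec event had a PSI of 0.14, 0.15 and 0.22 at week 6, then 0.40, 0.20 and 0.42 at week 12 and then 0.34, 0.32 and 0.52 at week 20. The quadriceps libraries were the lowest of both later weeks. The fitted difference was 0.36 ± 0.04 with the muscle term (SE; limma, adjusted p = 0.525), against 0.22 without it. Of 64 first-exon events of Plec, 9 were separated, 8 higher and 1 lower. These are not independent, because 12 of the 64 list 1 shared transcript and 8 of those 12 are separated.

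Skipped exons with higher inclusion at week 20 included a short exon of Med21, a subunit of the Mediator complex that links transcription factors to RNA polymerase II. This exon of 24 nt (mm10, chr6:146648256-146648279) had a PSI of 0.31, 0.40 and 0.32 at week 6, then 0.49, 0.29 and 0.43 at week 12 and then 0.81, 0.76 and 0.74 at week 20. Week 20 stood apart from both earlier weeks, which overlapped. The fitted difference between week 20 and week 6 was 0.47 ± 0.07 (SE; limma, adjusted p = 0.556). Abl1 encodes a non-receptor tyrosine kinase, and its exon of 144 nt (chr2:31695749-31695892) was included at 0.05, 0.04 and 0.04 at week 6, then 0.05, 0.08 and 0.05 at week 12 and then 0.19, 0.17 and 0.13 at week 20. Week 20 again lay above both earlier weeks. The quadriceps libraries were the highest of both later weeks, and the difference was 0.09 with the muscle term, against 0.12 without it. Tcf7l2 encodes a transcription factor of the Wnt pathway. Its exon of 73 nt (chr19:55925977-55926049) was included at 0.33, 0.17 and 0.28 at week 6, then 0.49, 0.29 and 0.56 at week 12 and then 0.38, 0.36 and 0.71 at week 20. Here, as in Plec, the quadriceps libraries were the lowest of the later weeks. The difference was 0.42 with the muscle term (limma, adjusted p = 0.556), against 0.22 without it (exact permutation p of the slope on week = 0.113). Zfyve28, whose product is an endosomal protein, had an exon of 210 nt with week 20 values of 0.31, 0.41 and 0.57, against 0.21, 0.26 and 0.17 at week 6. Week 12 overlapped week 6, with 0.29, 0.15 and 0.26, and the quadriceps libraries were the lowest of both later weeks. The Zfyve28 difference was 0.33 with the muscle term and 0.22 without it.

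Retained introns among the 10 lay in Tha1 and Mib2. Tha1 encodes threonine aldolase, and the intron of 983 nt (chr11:117870621-117871603) was kept at 0.26, 0.24 and 0.24 at week 6, then 0.54, 0.46 and 0.51 at week 12 and then 0.47, 0.47 and 0.71 at week 20. Week 6 lay below every later library, which overlapped. Mib2 encodes a ubiquitin ligase that acts on Notch ligands, and its intron of 121 nt had 0.28, 0.32 and 0.49 at week 20, against 0.20, 0.18 and 0.27 at week 6. Week 12 overlapped week 6, with 0.30, 0.11 and 0.27, the quadriceps library being the lowest, and the difference was 0.27 with the muscle term, against 0.15 without it. The 3′ splice site event of Strn4, a striatin that scaffolds protein phosphatase 2A, had 0.75, 0.68 and 0.86 at week 20, against 0.55, 0.49 and 0.45 at week 6.

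Among the 10 events with a lower PSI at week 20, Map4k4 and Bach2 had small differences between narrow groups. Map4k4 encodes a serine/threonine kinase of stress signalling. Its exon of 162 nt (chr1:40001430-40001591) was included at 0.16, 0.16 and 0.15 at week 6, then 0.09, 0.10 and 0.10 at week 12 and then 0.03, 0.06 and 0.05 at week 20. The weeks did not overlap, and no-dox, dox-control, quadriceps and gastrocnemius libraries of a week lay together. The fitted difference was -0.11 ± 0.01 (SE; limma, adjusted p = 0.525). Bach2 encodes a transcription repressor known mainly from lymphocytes. Its last-exon PSI was 0.97, 0.98 and 0.96 at week 6, then 0.95, 0.95 and 0.91 at week 12 and then 0.85, 0.83 and 0.84 at week 20. It too was ordered without overlap, with a fitted difference of -0.14 ± 0.02 (SE; limma, adjusted p = 0.525).

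Nf1 encodes neurofibromin, which turns off Ras. Its 3′ splice site event had 0.86, 0.88 and 0.92 at week 6, then 0.71, 0.75 and 0.74 at week 12 and then 0.68, 0.70 and 0.69 at week 20, again with no overlap between weeks. Afg1l encodes a mitochondrial ATPase, and its exon of 192 nt (chr10:42394826-42395017) was included at 0.21, 0.28 and 0.28 at week 6, then 0.01, 0.08 and 0.02 at week 12 and then 0.07, 0.13 and 0.06 at week 20. Week 6 stood above both later weeks. Hsd17b14, a hydroxysteroid dehydrogenase gene, had an exon of 68 nt (chr7:45565955-45566022) at 0.75, 0.77 and 0.80 at week 6, then 0.70, 0.75 and 0.74 at week 12 and then 0.54, 0.57 and 0.49 at week 20. Here week 20 stood below both earlier weeks, as it did for Atrnl1, an attractin-like gene. The Atrnl1 exon of 155 nt had 0.80, 0.81 and 0.81 at week 20, against 0.92, 0.91 and 0.93 at week 6.

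The other 4 with a lower PSI were Plekhg3, Sbno1, Auts2 and Tm7sf2. For Plekhg3, a guanine nucleotide exchange factor gene, the 5′ splice site event averaged 0.750 at week 20 and 0.920 at week 6. For Sbno1 the 3′ splice site event averaged 0.683 at week 20 and 0.887 at week 6. For Auts2, a chromatin regulator gene known from neural development, the mutually exclusive exon event averaged 0.783 at week 20 and 0.903 at week 6. Tm7sf2 encodes a sterol reductase of cholesterol synthesis, and its first-exon event averaged 0.520 at week 20 and 0.657 at week 6. In all 4 the quadriceps libraries were the highest of both later weeks. They had 0.81 and 0.75 at week 20 in Plekhg3, against 0.69 in gastrocnemius, 0.70 and 0.74 in Sbno1, against 0.61, and 0.80 and 0.81 in Auts2, against 0.74. The Auts2 difference of -0.18 with the muscle term was -0.12 without it. In Tm7sf2 the difference of -0.27 with the muscle term was -0.14 without it (exact permutation p of the slope on week = 0.117).

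**Figure D2:**
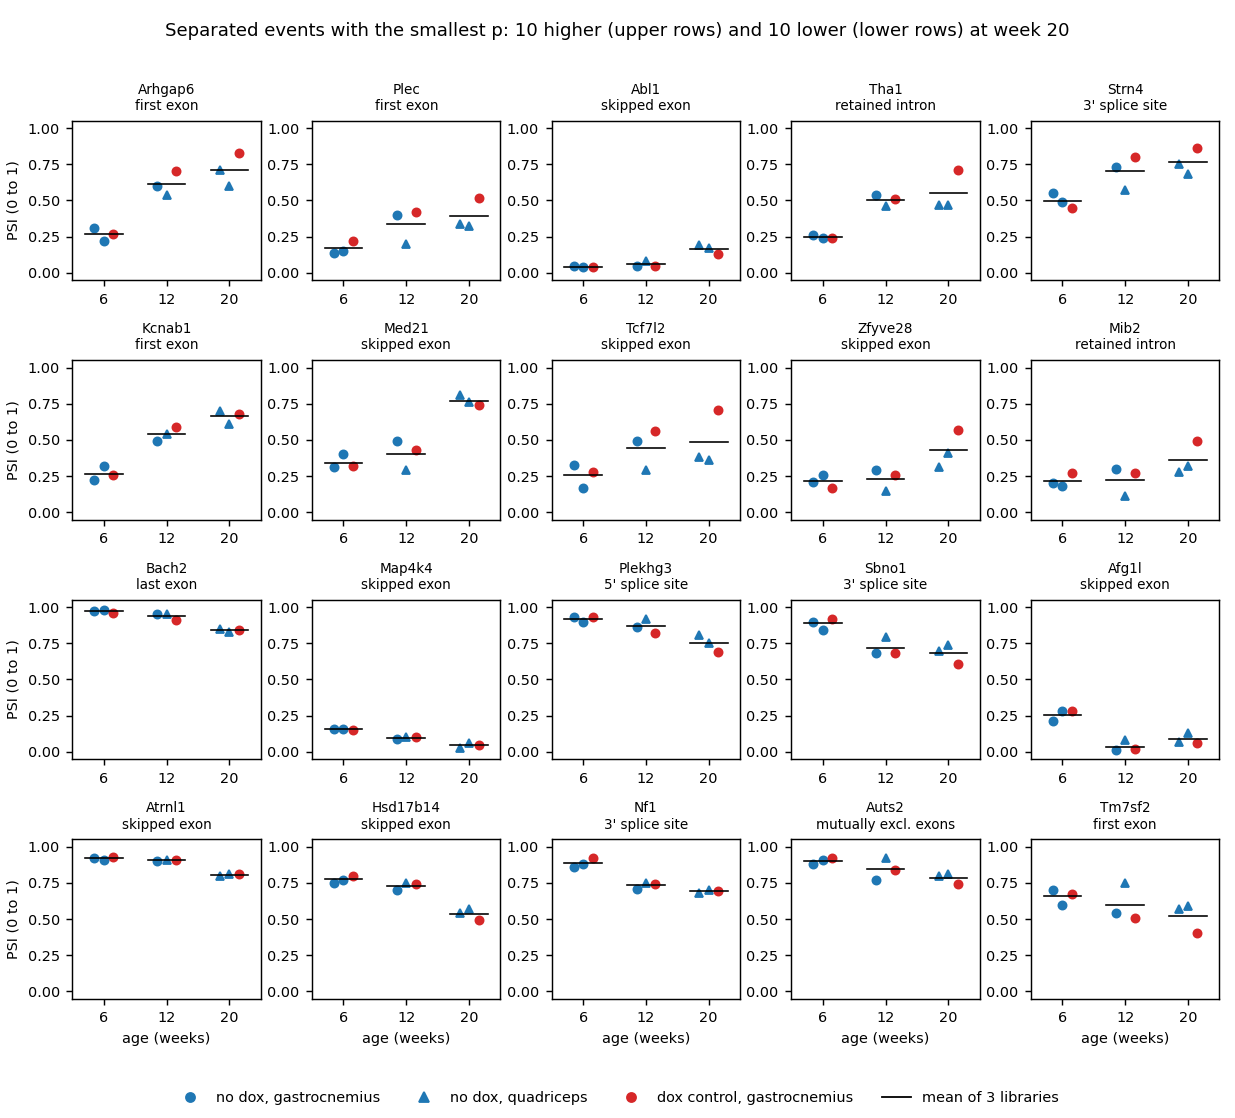
PSI (vertical axis, 0 to 1) by age in weeks (horizontal axis) for the 20 named separated events, 10 higher at week 20 in the upper rows and 10 lower in the lower rows. Each point is 1 library, coloured by condition, with circles for gastrocnemius and triangles for quadriceps, and bars are means of 3 libraries. Kcnab1 and Map4k4 show 3 weeks that do not overlap, while Plec and Tcf7l2 show quadriceps points below the gastrocnemius points of the same week.

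Of the 10 smallest p-values of the F test over the 3 weeks, 6 belonged to events already named, in Arhgap6, Plec, Bach2, Map4k4, Abl1 and Afg1l. The others were Apex2, Mapk7, Slc4a3 and Tmtc4, and none of the 10 passed. Apex2 encodes a DNA repair endonuclease. Its 3′ splice site event had 0.03, 0.04 and 0.04 at week 6, then 0.17, 0.09 and 0.18 at week 12 and then 0.07, 0.08 and 0.15 at week 20. Every later library lay above week 6, and week 12 differed from week 6 by 0.14 with the muscle term (limma, adjusted p = 0.0970). Mapk7 encodes the kinase ERK5, and its 3′ splice site event was high in the gastrocnemius libraries of the later weeks alone. It had 0.42 and 0.41 in the week 12 gastrocnemius libraries and 0.48 in that of week 20, against 0.13, 0.17 and 0.16 in the quadriceps libraries and 0.07, 0.13 and 0.18 at week 6. Slc4a3 encodes an anion exchanger, and its 3′ splice site event had 0.12, 0.11 and 0.13 at week 20, against 0.03, 0.04 and 0.03 at week 6. In Tmtc4 only week 12 stood apart, with 0.62, 0.74 and 0.46, against 0.21, 0.14 and 0.15 at week 6, while week 20 had 0.27, 0.36 and 0.14.

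A stricter pattern, defined after the values were seen, asks that weeks 6, 12 and 20 follow each other with no overlap between any of them. There were 32 such events (0.1%), 20 with the highest and 12 with the lowest PSI at week 20. Besides Kcnab1, Bach2, Map4k4 and Nf1 they included Tardbp, Thrb and Tcf7l1. Tardbp encodes TDP-43, an RNA-binding splicing regulator, and its 3′ splice site event had 0.10, 0.12 and 0.16 at week 6, then 0.19, 0.26 and 0.23 at week 12 and then 0.30, 0.38 and 0.31 at week 20. Thrb encodes a thyroid hormone receptor. Its first-exon event had 0.03, 0.03 and 0.05 at week 6, then 0.08, 0.06 and 0.06 at week 12 and then 0.31, 0.16 and 0.17 at week 20. Tcf7l1, a Wnt pathway transcription factor gene, had an exon of 42 nt (chr6:72648801-72648842) at 0.29, 0.16 and 0.16 at week 6, then 0.37, 0.30 and 0.30 at week 12 and then 0.48, 0.38 and 0.47 at week 20. These stepped up with the week, although in Thrb the first quadriceps library of week 20 stood above the other libraries of that week.

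Abl1, Ppp3cb, Septin4, Ktn1, Il15 and Gin1 were in the same set. A mutually exclusive exon event of Abl1 had 0.35, 0.20 and 0.32 at week 6, then 0.37, 0.43 and 0.37 at week 12 and then 0.67, 0.64 and 0.58 at week 20. Ppp3cb encodes a catalytic subunit of calcineurin, the calcium-dependent phosphatase, and its 3′ splice site event had 0.38, 0.46 and 0.51 at week 20, against 0.69, 0.57 and 0.57 at week 6. Septin4, a septin filament gene, had a mutually exclusive exon event at 0.69, 0.76 and 0.58 at week 20, against 0.87, 0.93 and 0.89 at week 6. Ktn1 encodes kinectin, a membrane anchor for kinesin, and its exon of 110 nt had 0.43, 0.39 and 0.47 at week 20, against 0.58, 0.68 and 0.55 at week 6. Il15 encodes interleukin-15, a cytokine that muscle makes, and its 3′ splice site event had 0.84, 0.84 and 0.85 at week 20, against 0.78, 0.61 and 0.72 at week 6. Gin1 had the lowest difference of the set, with a last-exon event at 0.18, 0.19 and 0.18 at week 20, against 0.48, 0.65 and 0.49 at week 6.

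Others of the 32 are given here as values only. A retained intron of Rabep2, a Rab effector of early endosomes, had 0.52, 0.67 and 0.41 at week 20, against 0.04, 0.30 and 0.13 at week 6. Necap2 and Eps15l1 act in clathrin-mediated endocytosis. The Necap2 exon of 115 nt had 0.25, 0.23 and 0.27 at week 20, against 0.06, 0.14 and 0.15 at week 6. The Eps15l1 last-exon event had 0.77, 0.70 and 0.80 at week 20, against 0.97, 0.92 and 0.89 at week 6. Tandem UTR events of Dnm3, a dynamin gene, and of Rab18 were also ordered. Dnm3 had 0.63, 0.80 and 0.58 at week 20, against 0.39, 0.44 and 0.47 at week 6. Rab18 had 0.35, 0.55 and 0.30 at week 20, against 0.14, 0.12 and 0.20 at week 6.

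**Figure D3:**
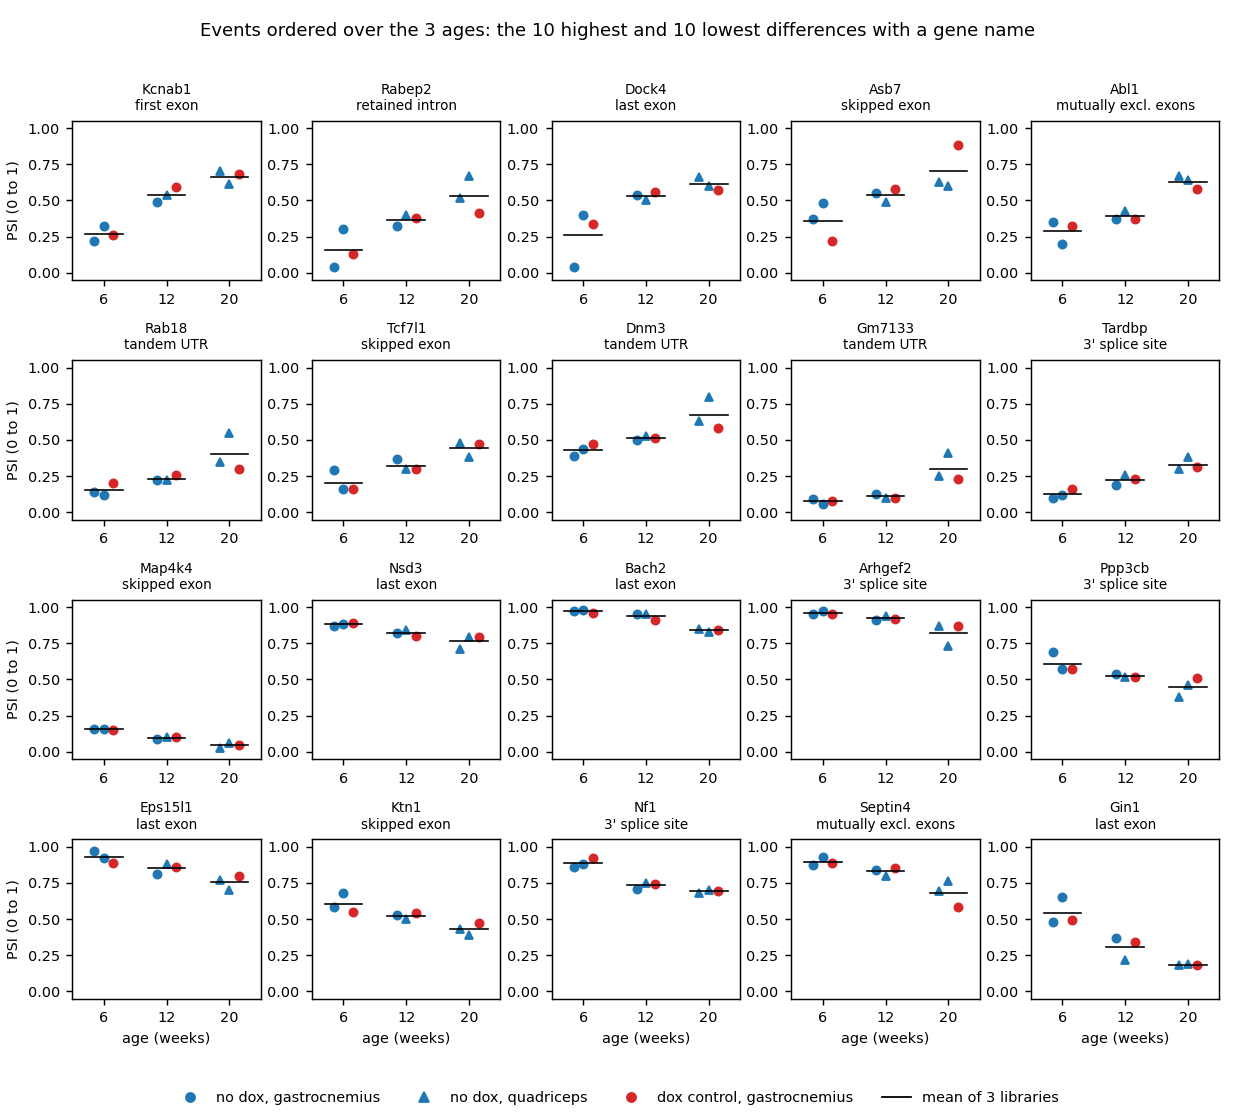
PSI (vertical axis, 0 to 1) by age in weeks (horizontal axis) for 20 of the 32 ordered events, the 10 with the highest and the 10 with the lowest difference between weeks 20 and 6 among those with a gene name. Each point is 1 library, circles gastrocnemius and triangles quadriceps, and bars are means of 3 libraries; in every panel the 3 weeks do not overlap.

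Genes known for MBNL-dependent and postnatal switches were counted next. Of the 410 events measured in 41 of 45 genes of MBNL-dependent splicing, 5 were higher and 5 lower among separated events, 2.44% against 3.84% of all events, and 23 (5.61%) had an unadjusted limma p under 0.05, against 5.95% of all. Of the 421 events in genes of postnatal splicing transitions, 8 were higher and 9 lower among separated events (4.04%). None was called. Separated events of these lists included Dmd, the dystrophin gene, whose first-exon event had 0.82, 0.81 and 0.84 at week 20, against 0.74, 0.54 and 0.70 at week 6. Sorbs2, a gene of cytoskeletal adaptors, had an exon of 159 nt at 0.72, 0.80 and 0.82 at week 20, against 0.44, 0.67 and 0.71 at week 6. Asph encodes aspartate hydroxylase and the calcium handling proteins junctin and junctate, and its exon of 96 nt had 0.38, 0.55 and 0.67 at week 20, against 0.77, 0.81 and 0.72 at week 6. In both Sorbs2 and Asph the quadriceps library was the lowest of week 12, at 0.44 and 0.57. The difference was 0.31 with the muscle term and 0.17 without it in Sorbs2, and -0.13 with it and -0.23 without it in Asph. The last-exon event of Camk2d, a calmodulin-dependent kinase gene, rested largely on 1 library, with 0.16, 0.53 and 0.15 at week 20, against 0.09, 0.05 and 0.09 at week 6, and its difference of 0.20 was 0.11 with the muscle term.

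For 18 genes with well-known muscle isoforms the leading event by p is shown whatever its result. In 6 of them, Mbnl2, Nfix, Neb, Tpm1, Ttn and Camk2b, that event had an unadjusted limma p under 0.05, and adjusted p-values were at least 0.781. Over all 140 events of the 18 genes, 7 (5.0%) had an unadjusted p under 0.05, against 5.95% of all events, so these 6 are the smallest of several p-values a gene. Several of these events lay near 0 or 1 at every age. The Atp2a1 exon of 42 nt, in the gene of the SERCA1 calcium pump and a known marker of mis-splicing in myotonic dystrophy, had a PSI of 1.00 in all 9 libraries. An exon of 119 nt in Clcn1, the muscle chloride channel gene, lay at 0.01, 0.01 and 0.00 at week 20, against 0.01, 0.02 and 0.03 at week 6, and an exon of 93 nt in Bin1, a membrane tubulation gene, at 0.01 in every library but 1. An exon of 95 nt in Mbnl1 overlapped over the weeks, with 0.79, 0.74 and 0.87 at week 20, against 0.80, 0.72 and 0.78 at week 6, and without the week 20 dox control its small fitted difference of 0.07 turned to -0.0017. An exon of 36 nt in Mbnl2 had 0.04, 0.06 and 0.05 at week 20, against 0.01, 0.02 and 0.02 at week 6, a difference of 0.04 ± 0.01 with the muscle term (SE; limma, adjusted p = 0.781). Nfix, a nuclear factor I gene, had a first-exon event at 0.64, 0.75 and 0.38 at week 20, against 0.72, 0.77 and 0.69 at week 6, low in the gastrocnemius library alone, and its difference was -0.24 with the muscle term and -0.14 without it.

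Over all 140 events of these 18 genes, 1 (0.714%) was separated, against 3.84% of all events. It is a mutually exclusive exon event of Neb, the gene of nebulin, which spans the thin filament, and it was chosen after its values were seen. It had 0.33, 0.28 and 0.24 at week 20, against 0.37, 0.42 and 0.41 at week 6, a difference of -0.12 ± 0.06 (SE; limma, adjusted p = 0.882). The Ttn exon of 303 nt in titin had 0.53, 0.52 and 0.29 at week 20, against 0.54, 0.45 and 0.52 at week 6, a difference of -0.16 with the muscle term and -0.06 without it. Tnnt3 encodes fast troponin T, and its mutually exclusive exon event went with muscle at both later weeks. It had 0.08 and 0.03 in the week 20 quadriceps libraries and 0.17 in that of week 12, against 0.40 to 0.83 in the gastrocnemius libraries of all weeks. The muscle term was -0.61 ± 0.11 (SE; limma, adjusted p = 0.615), and the week 20 minus week 6 difference was 0.21 with that term and -0.20 without it.

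Among genes of the sarcomere and fibre type, 9 of 175 events were separated (5.14%, against 3.84% of all events), 2 higher and 7 lower, and 15 (8.57%, against 5.95% of all) had an unadjusted limma p under 0.05, 3 higher and 12 lower. Obsl1 encodes obscurin-like 1, a linker at the M-band, and its last-exon event had 0.16, 0.12 and 0.25 at week 20, against 0.46, 0.69 and 0.63 at week 6. Tnni1 encodes slow troponin I. Its exon of 48 nt had 0.58, 0.61 and 0.66 at week 20, against 0.90, 0.84 and 0.87 at week 6. The week 12 quadriceps library had 0.63, below both gastrocnemius libraries of that week at 0.82, and the difference of -0.25 without the muscle term was -0.17 with it. The Tpm3 exon of 79 nt, in a tropomyosin gene of slow fibres, had 0.35, 0.55 and 0.63 at week 20, against 0.88, 0.66 and 0.85 at week 6. It was also low in the week 12 quadriceps library, at 0.26, against 0.81 and 0.86 in gastrocnemius. The week difference of -0.29 without the muscle term was -0.04 ± 0.13 with it (SE; limma, adjusted p = 1). The fitted difference was 0.23 in no-dox libraries alone and 0.2283 without the week 20 dox control. Both fits take their muscle term from that week 12 quadriceps library, and the no-dox values themselves fell from week 6 to week 20.

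Genes of the sarcolemma and cytoskeleton had 35 separated events of 602 (5.81%), 26 higher and 9 lower, in 17 genes, against 3.84% of all events, split 610 higher and 615 lower. First-exon events of Plec make up 9 of the 35, and 8 of those 9 list 1 shared transcript. Ank3 encodes ankyrin G, which anchors membrane proteins to the cytoskeleton. Its last-exon event had 0.31, 0.35 and 0.27 at week 20, against 0.77, 0.45 and 0.65 at week 6. The values of the no-dox libraries alone fell too, but their fitted difference was 0.05. That fit takes its muscle term from the week 12 no-dox pair, with 0.19 in quadriceps and 0.52 in gastrocnemius. Epb41l3, a gene for a membrane skeleton protein, had an exon of 192 nt at 0.66, 0.62 and 0.63 at week 20, against 0.21, 0.22 and 0.58 at week 6. The list of calcium handling and ion channel genes had 9 separated events of 196 (4.59%), 4 higher and 5 lower. That of the neuromuscular junction, denervation and regeneration had 5 of 131 (3.82%), 2 higher and 3 lower, among them a first-exon event of Tnnt2, cardiac troponin T, with 0.61, 0.54 and 0.53 at week 20, against 0.46, 0.43 and 0.46 at week 6.

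RNA-binding and splicing factor genes had 17 separated events of 363 (4.68%, against 3.84% of all events), 7 higher and 10 lower. Tia1 encodes an RNA-binding protein of stress granules that also acts on splicing. Its exon of 66 nt had 0.69, 0.32 and 0.33 at week 20, against 0.12, 0.24 and 0.06 at week 6. The exon of 73 nt in Rbm39, a splicing factor gene, had 0.61, 0.57 and 0.66 at week 20, against 0.42, 0.51 and 0.11 at week 6. Luc7l, a gene for a U1 snRNP-associated protein, had an exon of 71 nt at 0.38, 0.33 and 0.38 at week 20, against 0.74, 0.45 and 0.64 at week 6. In Rbm39 the dox control of week 6 lay far below the other libraries of its week. The values of the no-dox libraries alone also rose, but their fitted difference was -0.015. That fit takes its muscle term from the week 12 no-dox pair, with 0.63 in quadriceps and 0.49 in gastrocnemius. In Tia1 the difference was 0.19 with the muscle term and 0.31 without it.

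Transcription and chromatin factor genes had 10 separated events of 348 (2.87%, against 3.84% of all events), 6 higher and 4 lower, with Tcf7l2, Nfia and Foxp1 in front. The Nfia first-exon event had 0.87, 0.88 and 0.76 at week 20, against 0.67, 0.61 and 0.66 at week 6. The Foxp1 3′ splice site event had 0.75, 0.54 and 0.51 at week 20, against 0.81, 0.82 and 0.86 at week 6. Its fitted difference with the muscle term turned to 0.25 in no-dox libraries alone and to 0.17 without the week 20 dox control. Both fits take that term from the single quadriceps library of week 12, which had 0.39, against 0.81 and 0.67 in gastrocnemius. The no-dox values themselves were lower at week 20 than at week 6. The Nfia difference was 0.12 with the muscle term and 0.19 without it. Circadian clock genes had 3 of 68 (4.41%), in 2 genes and each higher, while 2 of the 68 (2.94%) had an unadjusted limma p under 0.05. They included an exon of Dbp, a clock output transcription factor gene, at 0.76, 0.83 and 0.76 at week 20, against 0.50, 0.59 and 0.70 at week 6. In Rbm3, a cold-inducible RNA-binding protein gene of the same list, the 5′ splice site event had 0.56, 0.51 and 0.63 at week 20, against 0.49, 0.46 and 0.42 at week 6. Week 12 spanned 0.31 to 0.61, and the difference of 0.07 with the muscle term turned to -0.09 in no-dox libraries alone and to -0.15 without the week 20 dox control. Both fits take that term from the single quadriceps library of week 12, at 0.61, and the no-dox values themselves were higher at week 20 than at week 6.

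Genes of endocytosis and vesicle traffic had 7 separated events of 306 (2.29%, against 3.84% of all events), 6 higher and 1 lower, among them Vps39 and Kif1b beside Eps15l1. The Vps39 exon of 33 nt had 0.79, 0.75 and 0.80 at week 20, against 0.68, 0.67 and 0.60 at week 6. The Kif1b first-exon event had 0.67, 0.63 and 0.55 at week 20, against 0.47, 0.43 and 0.52 at week 6, a difference of 0.07 with the muscle term and 0.14 without it. Insulin signalling, kinase and phosphatase genes had 8 of 297 (2.69%), 6 higher and 2 lower. Of these, Rapgef1, a Rap1 exchange factor gene, had a last-exon event at 0.64, 0.56 and 0.62 at week 20, against 0.54, 0.42 and 0.39 at week 6. Ppp6r3 and Ppp1r12b, genes of phosphatase regulatory subunits, had first-exon events that averaged 0.333 and 0.430 at week 20, against 0.197 and 0.557 at week 6. In no-dox libraries alone the fitted difference turned in Rapgef1 (-0.05) and Ppp1r12b (0.14), and in Ppp1r12b also without the week 20 dox control (0.0933). Those fits take the muscle term from the single week 12 quadriceps library, at 0.55 in Rapgef1 and 0.38 in Ppp1r12b. The no-dox values themselves kept their direction in both genes. Energy metabolism genes had no separated event among 151, and broadly expressed control genes none among 81.

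Extracellular matrix genes had 5 separated events of 133 (3.76%, near the 3.84% of all events), 4 higher and 1 lower, and 15 events (11.3%, against 5.95% of all) with an unadjusted limma p under 0.05, 8 higher and 7 lower. Col1a2 encodes a chain of type I collagen, made by fibroblasts, and its last-exon event had 0.47, 0.68 and 0.48 at week 20, against 0.14, 0.18 and 0.24 at week 6. Itga6, an integrin gene, had a first-exon event at 0.56, 0.37 and 0.29 at week 20, against 0.27, 0.22 and 0.25 at week 6. The week 12 quadriceps library was also high, at 0.48, and the difference of 0.16 without the muscle term was 0.03 with it and -0.0133 with a replicate block. The Lama2 exon of 12 nt, in a laminin gene of the muscle basement membrane, had 0.91, 0.89 and 0.89 at week 20, against 0.78, 0.63 and 0.86 at week 6, a difference of 0.09 with the muscle term and 0.14 without it. Markers of other cell types had 3 of 60 events (5.0%) separated, in Col1a2, Cd68 and Mbp. Cd68 marks macrophages, and its exon of 461 nt had 0.65, 0.64 and 0.71 at week 20, against 0.80, 0.76 and 0.77 at week 6. The table holds no expression levels, so the amount of these cells could not be measured. An event was measured in all 9 libraries in 9 of 10 muscle fibre markers, 5 of 5 of slow fibres and 4 of 6 of fibroblasts. The same held for 4 of 5 of endothelium, 4 of 4 of leukocytes and 2 of 5 of nerve and Schwann cells. It held for 2 of 4 of adipocytes, 1 of 3 of smooth muscle and 0 of 3 of satellite cells. A measured event does not give the level of a gene, so these counts do not check the tissue.

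Kinds of splicing event differed in how often they were separated. Tandem UTRs, alternative ends of the 3′ UTR within a last exon, led with 102 of 1121 events (9.10%), 64 higher and 38 lower at week 20. Only 40 of these 102 could be given a gene name. First exons followed with 258 of 4763 (5.42%) and mutually exclusive exons with 54 of 1022 (5.28%). Skipped exons had 341 of 9486 (3.59%), 177 higher and 164 lower, and retained introns the fewest for their number, 58 of 2219 (2.61%). Below tandem UTRs, the share with an unadjusted limma p under 0.05 ordered the kinds differently. It was 7.761% in tandem UTRs, 6.631% in skipped exons, 6.53% in 3′ splice sites and 6.215% in first exons. Against 5.95% of all events, retained introns had 5.678%, 5′ splice sites 5.324%, last exons 4.824% and mutually exclusive exons 4.501%. Differences between kinds were not tested. Kinds also differ in how many events lie away from 0 and 1, where a difference of 0.1 is easier to reach. Among events with a mean PSI of 0.05 to 0.95 the share was 10.4% in tandem UTRs, 6.46% in mutually exclusive exons, 6.03% in first exons, 5.40% in skipped exons, 4.95% in 5′ splice sites, 4.77% in 3′ splice sites, 4.72% in retained introns and 4.45% in last exons, so below tandem UTRs the order depends on that restriction. Counted by named gene, 10.1% of genes with a tandem UTR event and 9.76% of genes with a first-exon event had a separated one. Mean retention over all introns did not move apart by week, with 0.242, 0.253 and 0.235 at week 20, against 0.239, 0.249 and 0.237 at week 6. Skipped exons of up to 30 nt, a class fixed by length alone, had 17 separated events with a higher and 3 with a lower PSI at week 20 among 426 (4.69%, against 3.84% of all events). Longer exons had 74 higher and 82 lower among 4165 with a length divisible by 3, and 86 higher and 79 lower among the other 4895. The difference in split between these classes was not tested.

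**Figure D4:**
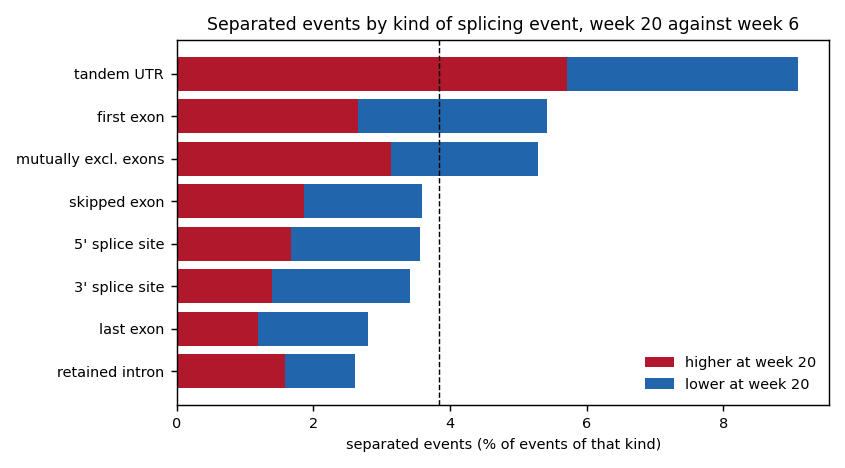
Share of the events of each kind (vertical axis) that were separated between week 20 and week 6 (horizontal axis, %, from 0), split into events with a higher and a lower PSI at week 20, with the 3.84% of all events as a dashed line. Tandem UTRs reach 9.10% and retained introns 2.61%.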

How the data were processed

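Poly-A RNA of single muscles was read from both ends, 100 bases each (per the labels' protocols). The authors deposited PSI as a fraction to 2 decimals for each event and library, per the file headers; its name calls the values MISO output. TopHat and mm10 are named, per the submitters' processing notes. Their versions, the annotation and any read minimum were not given in the sources used. Without counts of reads the depth is unknown, and no interval that needs it is given; between 34416 and 36379 events had a value in a library.

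Libraries were grouped by their labels. Events with values in all 9 control libraries were fitted with limma 3.58.1 (R 4.3.3) on PSI, with week and muscle as terms, variance trend and robust moderation, two-sided, with Benjamini-Hochberg adjustment over 31876 events. Calls needed an adjusted p below 0.05 together with a fitted difference of 0.1 or more. The fit was tested on simulated data. Events were named through gene IDs, or by position within RefSeq genes (GRCm38.p6); 939 tested events stayed without a gene name. The week comparisons share libraries.

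Genes in the text are the 10 separated events a direction with the smallest p, 1 a gene; the 10 smallest p of the F test; up to 3 separated events with the largest difference for each of 15 gene lists; and the leading event of 18 muscle genes. Ordered events were added after their values were seen. Members and lists were chosen with earlier results of these data known. Alternatives were fits without the muscle term, in gastrocnemius or no-dox libraries alone, with a condition term, with a replicate block, on the logit scale, without trend and robust moderation, other filters and minimum differences, and without each library. Replicate numbers of the no-dox libraries were not used to pair the weeks in the main fit. Deviations from week means correlated at -0.02 (weeks 6 and 12), 0.00 (weeks 6 and 20) and 0.03 (weeks 12 and 20). These values cannot decide on pairing, because the replicates also differed in sex at week 6 and in muscle at week 12.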

Additional observations from a re-analysis of the deposited data

How the results depend on the processing

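The count of calls was 0 in all week comparisons under most alternatives. For week 20 against week 6, limma called 1 event on the logit scale (Apex2), and leaving out 1 library gave 0 to 3 calls. There were 3 without the week 20 dox control, in Ttc3 and Cul9, whose values at weeks 20 and 6 overlapped. There was 1 without week 12 no-dox replicate 2 (Slc37a1). The latter fit takes its muscle term from week 20 alone, where Slc37a1 had 0.54 in the single gastrocnemius library, against 0.07 and 0.10 in quadriceps. For week 12 against week 6 there was 1 on the logit scale and 1 without trend and robust moderation (Apex2, limma adjusted p = 0.0430), and 0 to 0 with a library left out. For week 20 against week 12, leaving out 1 library gave 0 to 10 calls, with 10 without the week 20 dox control; that fit takes its muscle term from the single quadriceps library of week 12, in which Cul9 had 0.58, against at most 0.09 in the others. The F test, which had no minimum difference, called 20 on the logit scale and 0 to 3 with a library left out (3 without the week 20 dox control). With a replicate block there were 0 calls everywhere. Separated events numbered 1975 at a minimum difference of 0.05, 388 at 0.2 and 1996 to 2391 with a library left out, which needs fewer libraries to be apart; ordered events numbered 14 at 0.2.

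The list that follows covers the 72 events named by rule. It leaves out the separated Neb event, events named only for being ordered, and those called only under an alternative, also where their sign turned. In no-dox libraries alone and without the week 20 dox control, week 20 was all quadriceps and week 6 all gastrocnemius. Both fits took the muscle term from the single quadriceps library outside week 20, and cannot single out doxycycline or the libraries left out. From week 6 to week 20 the no-dox values of Foxp1, Rbm3, Tpm3, Ppp1r12b, Ank3, Rapgef1 and Rbm39 kept the main fit's sign. Those of Mef2d and Tmtc4 did not. The differences between week 20 and week 6 that turned sign were as follows, and the cause was not tested further. In no-dox libraries alone they were Foxp1 0.25, Mef2d -0.005, Tmtc4 0.02, Rbm3 -0.09, Tpm3 0.23, Ppp1r12b 0.14, Ank3 0.05, Rapgef1 -0.05 and Rbm39 -0.015. Leaving out 1 library, they ran over -0.32 to 0.17 for Foxp1, -0.15 to 0.17 for Rbm3, -0.17 to 0.23 for Tpm3, -0.0017 to 0.10 for Mbnl1, -0.0133 to 0.32 for Tnnt3, -0.18 to 0.0933 for Ppp1r12b and -0.0733 to 0.0167 for Tpm2; the week 20 dox control was the library whose omission turned each sign, and for Tpm3 also week 6 no-dox replicate 1 (0.0067). Without the muscle term they were Tmtc4 0.09, Tnnt3 -0.20 and Mef2c -0.01. Under the replicate block Itga6 had -0.0133 and Tmtc4 0.0033, and with a condition term Tmtc4 had 0.002. The number of libraries and the unknown depth limit the precision of every PSI.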
